A study of Mus musculus with 9 samples.

Results

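The genes described here encode the proteins of the mitochondrial ribosome, and were taken as every gene whose symbol begins with Mrpl or Mrps followed by a digit in the annotation of the array. These were 76 of the 17514 genes tested, 47 of the large subunit class (Mrpl) and 29 of the small subunit class (Mrps). They were measured by 155 probe sets, each paired with 1 symbol. A probe set is a group of short probes on the array that together read 1 transcript. Mrpl30 and Mrpl53 were named only by probe sets that carry several symbols and were not analysed here.

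Liver RNA of c57Bl/6 mice was hybridised to Affymetrix GeneChip arrays, 4 from the control group and 5 from a group on a high-fat diet (HFD). The high-fat diet came from Harlan-Teklad, held 21% fat and gave 42% of its calories as fat, and all mice ate chow until the study. Sex, age, length of feeding and batch are not in the labels. Nor do they say whether 1 array stands for 1 mouse, and the p-values may for that reason rest on technical spread alone. The question put to these arrays is whether the diet went with a change in liver transcripts. A value gives the log2 distance of a probe set from its own baseline, its median over all samples, so that groups can be compared while the level of one gene cannot be set against that of another. The number of arrays limits the precision.

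Mitochondria keep a ribosome of their own, which translates the few proteins encoded by mitochondrial DNA, all of them membrane subunits of the respiratory chain and ATP synthase. Its RNA comes from mitochondrial DNA, whereas all of its proteins are encoded in the nucleus, made in the cytosol and imported. Part of the proteins descend from those of bacterial ribosomes and part are found in mitochondria alone. In liver, hepatocytes are rich in mitochondria and depend on this machinery for fatty acid oxidation coupled to respiration.

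Promoters of such genes are known to bind the transcription factors NRF1, GABPA (an ETS factor), YY1 and SP1. The RefSeq promoter table (GRCm38.p6, 250 bases before to 50 after each start, 300 bases in all) held 73 promoters of 67 members, and 9 members had none in it. Of the 5 promoters shown, that of Mrpl16 belongs to the one member past the test threshold, and the others were chosen after the values were seen, from members whose control and HFD arrays did not overlap. Mrpl27, Mrpl12 and Mrpl36 each hold a match to a different motif, and Mrpl24 is a member with lower values in HFD. Capitals mark the matches, which are an ETS core in Mrpl27, an NRF1-type core on the reverse strand in Mrpl12 and a YY1-type core on the reverse strand in Mrpl36.
Mrpl16 chr19:11770165-11770464 + strand: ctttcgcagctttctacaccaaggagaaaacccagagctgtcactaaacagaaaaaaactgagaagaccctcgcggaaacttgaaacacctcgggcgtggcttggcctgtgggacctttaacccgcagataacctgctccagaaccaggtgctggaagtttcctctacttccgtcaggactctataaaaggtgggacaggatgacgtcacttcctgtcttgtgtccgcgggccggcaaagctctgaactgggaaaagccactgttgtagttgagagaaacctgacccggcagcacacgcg
Mrpl27 chr11:94653541-94653840 + strand: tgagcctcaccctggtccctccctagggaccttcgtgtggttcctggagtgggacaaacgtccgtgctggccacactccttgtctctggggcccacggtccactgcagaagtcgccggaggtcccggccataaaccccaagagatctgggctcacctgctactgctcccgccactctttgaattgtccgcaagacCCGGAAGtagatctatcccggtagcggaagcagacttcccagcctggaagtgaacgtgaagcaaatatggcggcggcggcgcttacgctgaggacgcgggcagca
Mrpl12 chr11:120484387-120484686 + strand: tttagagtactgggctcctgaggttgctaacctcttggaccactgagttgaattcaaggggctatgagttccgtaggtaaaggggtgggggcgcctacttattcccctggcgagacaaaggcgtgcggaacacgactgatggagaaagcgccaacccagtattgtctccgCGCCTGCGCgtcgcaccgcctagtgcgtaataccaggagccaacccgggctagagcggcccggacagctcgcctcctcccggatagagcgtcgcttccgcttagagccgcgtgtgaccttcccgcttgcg
Mrpl36 chr13:73330759-73331058 + strand: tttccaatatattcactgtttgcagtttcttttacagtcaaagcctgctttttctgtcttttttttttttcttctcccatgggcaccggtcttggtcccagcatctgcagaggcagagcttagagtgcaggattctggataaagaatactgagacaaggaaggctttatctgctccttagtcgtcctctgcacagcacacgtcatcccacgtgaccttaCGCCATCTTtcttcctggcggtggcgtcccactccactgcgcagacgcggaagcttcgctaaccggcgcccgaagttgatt
Mrpl24 chr3:87919294-87919593 + strand: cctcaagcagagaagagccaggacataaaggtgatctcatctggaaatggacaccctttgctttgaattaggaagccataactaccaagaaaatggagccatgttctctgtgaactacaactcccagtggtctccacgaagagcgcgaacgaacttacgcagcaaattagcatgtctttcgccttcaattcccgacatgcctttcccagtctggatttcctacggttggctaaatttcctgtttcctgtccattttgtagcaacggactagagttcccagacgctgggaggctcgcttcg

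The motifs were searched on both strands, each on its own and with overlaps allowed. The NRF1-type core GCGCANGCG was in 15 of the 73 promoters of mitoribosomal genes (20.5%), against 6.25% of all 32851 promoters and 10.1% of those of the genes tested on the array. The ETS core CCGGAAG was in 25 (34.2%), against 8.86% of all promoters and 13.3% on the array. The YY1-type core AAGATGGCG was in 8 (11%), against 1.4% and 2.16%. The GC box GGGCGG was in 39 (53.4%), which is close to the 53.1% of genes on the array and above the 35.7% of all promoters. Related gene sets held the motifs as well, with the NRF1-type core in 27.1% and the ETS core in 24.3% of promoters of respiratory chain and ATP synthase genes, and in 12% and 40% of those of cytosolic ribosomal protein genes. The match in Mrpl27 begins at position -55 counted from the start site, that in Mrpl12 at -80 and that in Mrpl36 at -31. The promoters of Mrpl16 and Mrpl24 held no match to any of the 4 motifs. A match describes letters only, and no binding was measured.

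As a group the mitoribosomal genes were split evenly between the diets. The HFD minus control difference was above 0 for 38 members and below 0 for 38, with a median of -0.00020 on the log2 scale (quartiles -0.14 and 0.18). The median over all genes tested was -0.02 (quartiles -0.13 and 0.11). By limma with Benjamini-Hochberg adjustment over all 17514 genes, 1 member rose, Mrpl16, and 0 fell, which is 1.32% of the members. Over all genes 5.24% passed the threshold of an adjusted p under 0.05, 3.37% as higher in HFD and 1.87% as lower. At an unadjusted p under 0.05 there were 12 members higher and 2 lower, together 18.4% of the members against 19.1% of all genes. By direction these were 15.8% higher and 2.63% lower, against 10.3% and 8.78% of all genes.

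The differences were small. Mrpl15 alone exceeded 0.5 in size, 1 of 76 (1.32%), against 8.54% of all genes, while the median size was 0.15 for the members and 0.12 for all genes. The 95% intervals of the difference had a median width of 0.50 and ran from 0.31 to 1.36 wide. For 75 of 76 members, all but Mrpl15, the interval lay within a change of 1 on the log2 scale in either direction. For 59 of 76 it lay within 1.5-fold in either direction. Over all 17514 genes the same held for 16240 and 13247, so that the share within 1.5-fold was much the same in the members. A p that does not pass is therefore no proof of equal values in a single member.

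**Figure D1:**
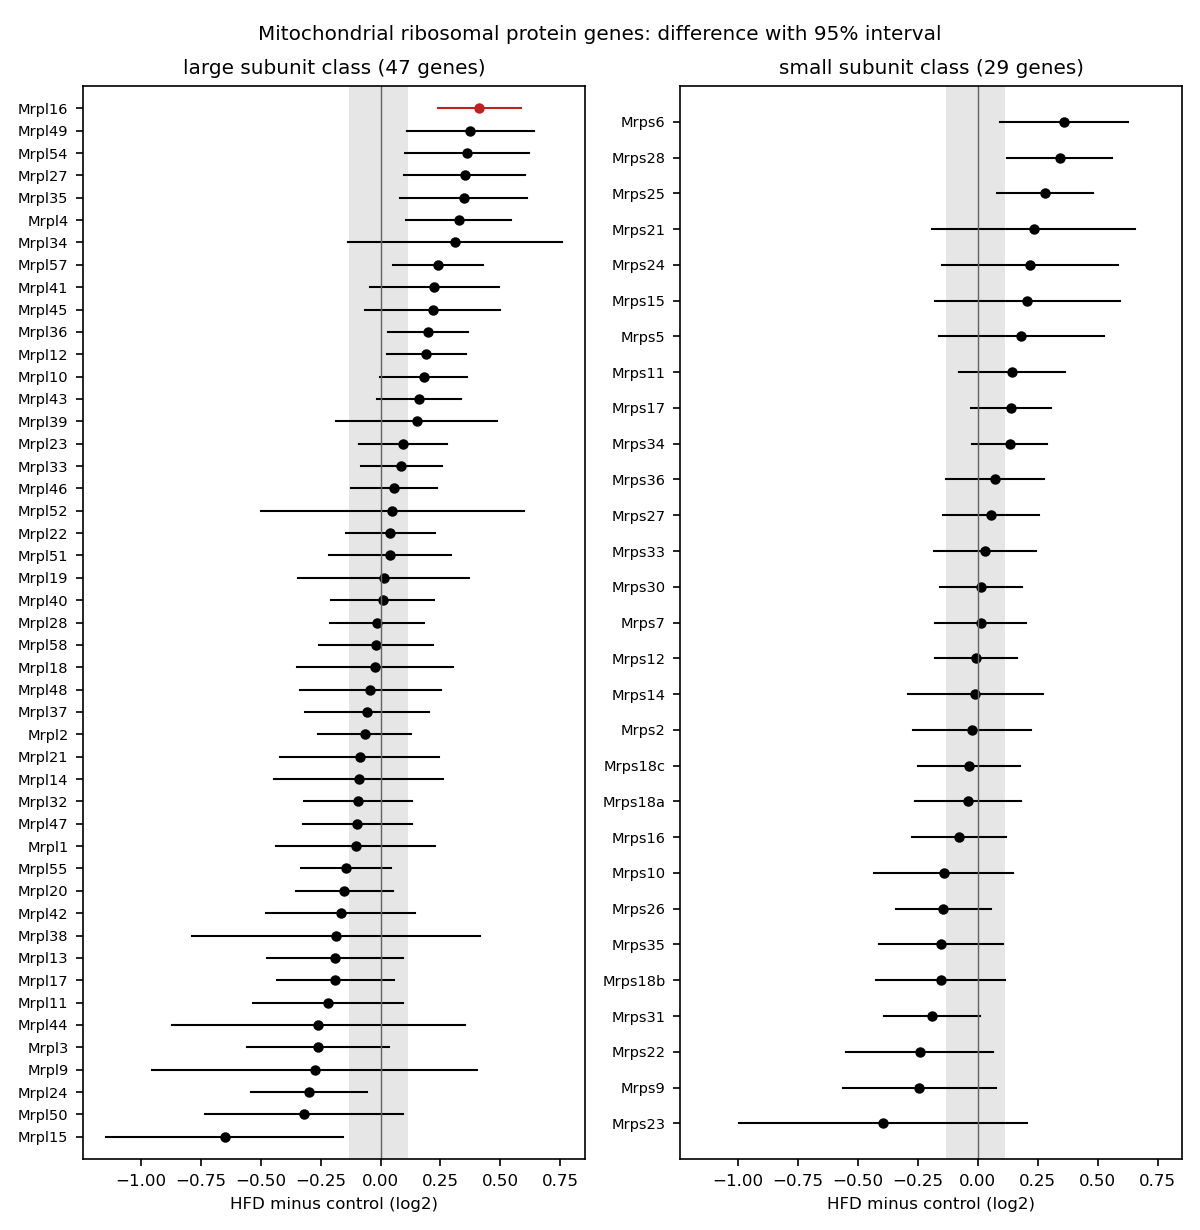
HFD minus control difference on the log2 scale (horizontal axis) for each mitochondrial ribosomal protein gene (vertical axis), with 47 genes of the large subunit class at left and 29 of the small subunit class at right. Points are differences between 4 control and 5 HFD arrays, lines are 95% intervals of the limma fit, the grey band spans the quartiles of all genes tested, and the red point is Mrpl16, the member past the threshold.

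Both subunits gave this picture. The large subunit class had 23 members above 0 and 24 below, a median of -0.015 and 1 call (2.13%). The small subunit class had 15 above and 14 below, a median of 0.011 and 0 calls by limma, with 3 higher and 0 lower at an unadjusted p under 0.05. On each array the median of the large subunit members minus that of the small subunit members was near 0. It averaged -0.0064 ± 0.030 (SD, n = 4) over the control arrays. The HFD arrays averaged -0.0019 ± 0.045 (SD, n = 5), and both groups lay between -0.063 and 0.046. Some symbols do not follow the structure of the mammalian ribosome, in which Mrps30 and Mrps18a sit in the large subunit and Mrps36 belongs to a metabolic enzyme complex. Sorted by structure, the large subunit had 49 members with a median of -0.015 and the small subunit 26 with a median of 0.0013.

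Members that descend from bacterial ribosomal proteins were split as well, with 21 of 45 above 0, a median of -0.011 and 1 call. Of the 30 members classed as specific to mitochondria, which include the paralogs Mrps18a and Mrps18b, 16 were above 0, the median was 0.010 and none passed by limma (4 higher and 0 lower at an unadjusted p under 0.05).

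In the large subunit, proteins around the peptidyl transferase centre, where peptide bonds are formed, included the one gene that passed. Mrpl16, whose bacterial counterpart helps to place transfer RNA at this centre, measured -0.23, -0.12, -0.30 and -0.21 on control arrays 1 to 4. On HFD arrays 1 to 5 it measured 0.14, 0.12, 0.27, 0.31 and 0.15. All 5 HFD arrays lay above all 4 control arrays, and the arrays within each group were close together. The difference was 0.41 ± 0.08 (standard error, 95% interval 0.24 to 0.59), a 1.33-fold rise with an adjusted p of 0.0148 by limma. Mrpl16 was read by 1 probe set, and without control replicate 3 the difference was 0.39 with an adjusted p of 0.0544, which no longer passed. Over 19 alternatives the difference ran from 0.39 to 0.44 and the adjusted p from 0.00586 to 0.0544.

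Mrpl27, the counterpart of a bacterial protein that reaches into the same centre, measured -0.02, -0.03, -0.14 and -0.45 in control and 0.23, 0.21, 0.39, 0.02 and 0.12 in HFD. The HFD arrays were all above the control arrays, the nearest pair by a small margin. Its difference was 0.35 ± 0.11 (1.28-fold) with an adjusted p of 0.113 by limma. The other of its 2 probe sets gave 0.37, and the mean of both gave 0.36 ± 0.08 with an adjusted p of 0.0344, past the threshold (adjusted p from 0.0344 to 0.242 over 19 alternatives). Mrpl4, a globular protein of the large subunit whose bacterial counterpart also lines the exit tunnel, measured -0.0070, -0.22, -0.20 and -0.37 in control and 0.08, 0.03, 0.24, 0.0070 and 0.28 in HFD. Its difference was 0.33 ± 0.10 (adjusted p = 0.0946 by limma), again without overlap between the groups.

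The other genes of this group did not pass. Mrpl3 had a difference of -0.26 and Mrpl2 of -0.07, and in both the groups overlapped. Of the 5 genes in the group, with Mrpl4 counted here and not with the exit tunnel, 3 were thus above 0 and 2 below, with 1 call. The median of 0.33 is the value of Mrpl4 and depends on where that gene is placed.

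The stalk, a flexible arm that recruits translation factors, was represented by 3 genes, none of which passed. Mrpl12, the stalk protein itself, measured -0.00080, -0.08, -0.18 and -0.14 in control and 0.13, 0.08, 0.00080, 0.13 and 0.11 in HFD, without overlap, for a difference of 0.19 ± 0.08 (adjusted p = 0.191 by limma). Mrpl10, which anchors it, measured -0.02, -0.09, 0.01 and -0.10 in control and 0.12, -0.01, 0.24, 0.23 and 0.08 in HFD, with a difference of 0.18 ± 0.08 (adjusted p = 0.262 by limma). In Mrpl10 HFD array 2 lay among the controls.

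Mrpl11, at the base of the stalk, measured 0.10, 0.02, 0.06 and -0.02 in control. On the HFD arrays it measured 0.05, -0.05, -0.43, 0.11 and -0.56. Arrays 3 and 5 were low and the other 3 lay near the controls, for a difference of -0.22 ± 0.14 (adjusted p = 0.454 by limma). Its 4 probe sets ranged from -0.22 to 0.19, with 2 above 0, so that its sign depends on the probe set read.

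**Figure D2:**
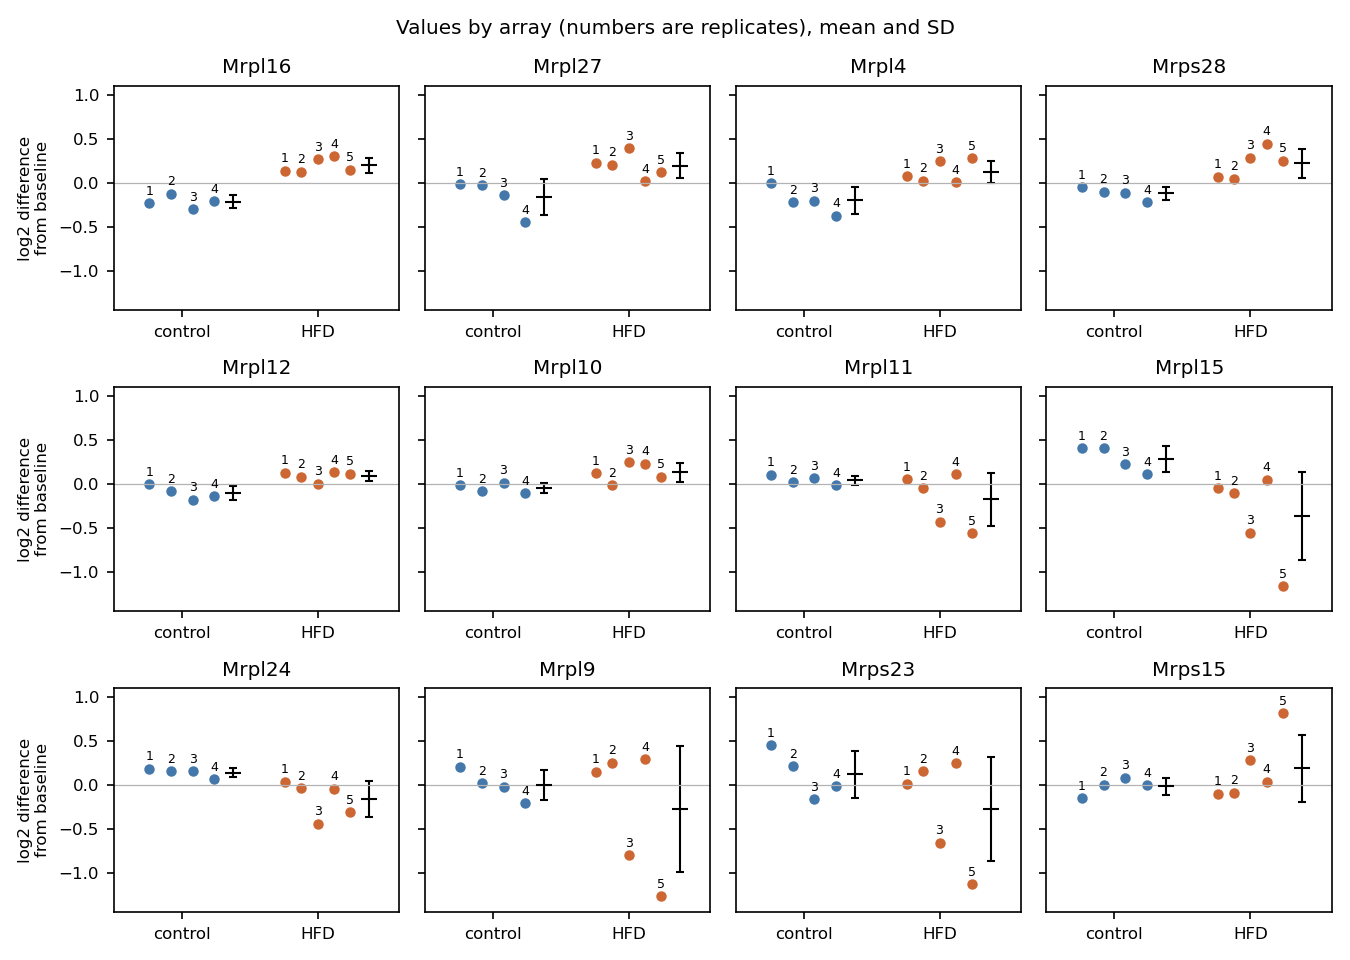
Values of 12 members on each array, as log2 differences from the baseline of the probe set (vertical axis), for the 4 control arrays (blue) and 5 HFD arrays (orange). Points are arrays, numbered by replicate, and the horizontal bar with its error bar at the right of each group is the mean ± SD. In Mrpl16 the groups are apart and narrow, while in Mrpl9 and Mrps23 HFD arrays 3 and 5 lie far below the others and in Mrps15 HFD array 5 lies above them.

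Along the exit tunnel, through which the new protein leaves, 4 of 7 genes were above 0 and 3 below, with a median of 0.04. Mrpl4 was not counted among these 7. Mrpl24, a protein near the mouth of the tunnel in bacteria, measured 0.18, 0.15, 0.15 and 0.07 in control and 0.04, -0.04, -0.44, -0.04 and -0.31 in HFD. Every HFD array was below every control array, and HFD arrays 3 and 5 were lowest. The difference was -0.30 ± 0.11 with an adjusted p of 0.16 by limma, and without HFD arrays 3 and 5 it was -0.15. Mrpl45, which ties the ribosome to the inner membrane, had a difference of 0.22 with overlapping groups. The central protuberance, a knob at the top of the subunit that carries a structural RNA in mammals, had 5 members between -0.18 (Mrpl38) and 0.06 (Mrpl46).

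Among the other bacterial-type proteins of the large subunit, 11 of 16 were below 0, the median was -0.09 and none passed. Mrpl15 measured 0.41, 0.41, 0.22 and 0.11 in control and -0.05, -0.11, -0.55, 0.05 and -1.17 in HFD. The groups did not overlap, and HFD arrays 5 and 3 were far below the other HFD arrays. Its difference of -0.65 ± 0.22 (1.57-fold lower, adjusted p = 0.136 by limma) was the largest in size of any member. It was read from 1 of 8 probe sets, which ranged from -0.65 to 0.16 with 2 above 0. Their mean gave -0.18 (adjusted p = 0.106 by limma). All HFD arrays were also below all controls in a probe set at -0.33 and in another at -0.17. Without HFD arrays 3 and 5 the difference of the chosen probe set was -0.32.

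Mrpl9, whose bacterial counterpart extends from the side of the subunit, had the widest interval. Control arrays measured 0.21, 0.02, -0.02 and -0.21, and HFD arrays 0.15, 0.25, -0.80, 0.29 and -1.26. HFD arrays 3 and 5 were below every control and the other 3 HFD arrays near or above the highest control, so that the difference was -0.27 ± 0.31 with all arrays and 0.23 ± 0.11 without these 2. Its 3 probe sets ranged from -0.27 to 0.29. Mrpl35 (0.35 ± 0.12, adjusted p = 0.137 by limma) and Mrpl36 (0.20, adjusted p = 0.181 by limma), both small proteins of bacterial type, had higher values in HFD that did not pass, and in Mrpl36 the groups did not overlap. The 3 probe sets of Mrpl35 ranged from 0.01 to 0.35 and averaged 0.16.

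The other proteins of the large subunit found in mitochondria alone, those not counted with the places above, held 7 of 11 members above 0. Their median was 0.05. Mrpl49 measured 0.07, -0.37, -0.39 and -0.22 in control and 0.26, 0.04, 0.15, -0.04 and 0.33 in HFD. Control array 1 lay among the HFD arrays, and the difference was 0.38 ± 0.12 (adjusted p = 0.108 by limma). Without control array 1 it was 0.47 and passed (adjusted p = 0.0492), while the gene's other probe set gave -0.09. Over 19 alternatives the difference of Mrpl49 ran from -0.09 to 0.47 and its adjusted p from 0.0492 to 0.852. Mrpl54 had a difference of 0.36 ± 0.12 (adjusted p = 0.114 by limma), with HFD array 2 at -0.08 and the other 4 between 0.17 and 0.50, and without that array it was 0.44 and passed (adjusted p = 0.045, with a range of 0.045 to 0.281 over 19 alternatives).

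Mrpl50, of the same class, had a difference of -0.32 ± 0.19 (adjusted p = 0.401 by limma). HFD arrays 3 and 5 read -0.58 and -0.72, and the other 3 lay between -0.0030 and 0.23, beside controls between -0.0020 and 0.28. Without arrays 3 and 5 the difference of the same probe set was -0.03.

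In the small subunit, which reads the messenger RNA, none of the members passed. Of 11 bacterial-type proteins of its body and platform, 7 were above 0, with a median of 0.14. Mrps28 measured -0.05, -0.10, -0.11 and -0.22 in control and 0.07, 0.05, 0.29, 0.44 and 0.25 in HFD. All HFD arrays were above all controls, and the difference was 0.34 ± 0.10 (1.27-fold, adjusted p = 0.0777 by limma). Mrps6, of the platform, measured -0.24, 0.04, -0.43 and -0.29 in control and -0.04, -0.08, 0.24, 0.19 and 0.32 in HFD, with a difference of 0.36 ± 0.12 (adjusted p = 0.127 by limma) and control array 2 among the HFD arrays. Its other probe set gave 0.09 and the mean of both 0.23. Mrps21 had a difference of 0.23 ± 0.19, with values on both sides of 0 in each group.

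The head of the small subunit, which grips the messenger RNA from above, had 5 bacterial-type members with a median of -0.011. Mrps9 was lowest at -0.24 ± 0.14, with HFD arrays 3 and 5 at -0.54 and -0.44 and all others between -0.10 and 0.19. Its 4 probe sets ranged from -0.24 to 0.15, and their mean gave -0.02.

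Small subunit proteins found in mitochondria alone had 4 of 10 members above 0 and a median of -0.15. Mrps25 measured -0.16, -0.18, -0.03 and -0.05 in control and 0.15, 0.08, 0.26, 0.36 and 0.03 in HFD. Its groups did not overlap, and the difference was 0.28 ± 0.09 (adjusted p = 0.113 by limma). Its 3 probe sets ranged from -0.0085 to 0.28.

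Mrps23 measured 0.45, 0.21, -0.16 and -0.01 in control and 0.01, 0.16, -0.66, 0.25 and -1.13 in HFD. Only HFD arrays 3 and 5 were below the controls, and the difference of -0.40 ± 0.27 (adjusted p = 0.486 by limma) became 0.02 without them. The 3 probe sets of Mrps23 ranged from -0.40 to 0.10 with 1 above 0, and their mean gave -0.11. Mrps22 (-0.24 ± 0.14) and Mrps31 (-0.19 ± 0.09) had lower values in HFD that did not pass, and in both the groups overlapped.

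The paralogs Mrps18a, Mrps18b and Mrps18c are related to each other and occupy different places in the ribosome. Their differences were -0.04 ± 0.10, -0.16 ± 0.12 and -0.04 ± 0.10, each with overlapping groups and each from 1 probe set. The control and HFD values of all 3 lay on both sides of 0. None passed by limma, where the lowest adjusted p of the 3 was 0.55.

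In 10 members all HFD arrays lay above all controls, and in 2 all lay below. The former were Mrpl4, Mrpl12, Mrpl16, Mrpl27, Mrpl36, Mrpl57, Mrps17, Mrps25, Mrps28 and Mrps34, which is 13.2% of the members against 5.62% of all genes. The latter were Mrpl15 and Mrpl24, 2.63% against 4.2%. The 10 genes had differences from 0.13 (Mrps34) to 0.41 (Mrpl16), and 9 of them did not pass. These lists depend on the probe set that stood for each gene. The other probe set of Mrpl57 gave -0.02 with overlapping groups. Among probe sets not chosen, of genes outside these lists, those of Mrpl9 (0.29), Mrps14 (0.28) and Mrpl58 (0.11) had all HFD arrays above all controls. Others, of Mrpl13 (-0.32) and Mrpl38 (-0.37), had all of them below.

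The values of the members spread more widely on HFD arrays 3 and 5 than on the other arrays. Across the 76 members the SD of the values on 1 array was 0.14 to 0.20 in control, 0.11, 0.14 and 0.17 on HFD arrays 1, 2 and 4, 0.28 on HFD array 3 and 0.42 on HFD array 5. Over all genes those 2 arrays also spread most, with SDs of 0.31 and 0.40 against 0.25 to 0.28 on the other 7. HFD arrays 3 and 5 were together below all other 7 arrays in 27 of 76 members (35.5%), against 13.2% of all genes, and together above them in 11 (14.5%), against 10.5% of all genes. These counts rest on the probe set with the largest SD of each gene. They were chosen after the values were seen, and are a description of these arrays.

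Which genes were low on both arrays cut across the subunits, with 17 of 47 large subunit and 10 of 29 small subunit members. The low ones included Mrpl9 (-0.80 and -1.26 on arrays 3 and 5), Mrpl44 (-0.63 and -1.26), Mrpl15 (-0.55 and -1.17) and Mrps23 (-0.66 and -1.13). These are values of the probe set that stood for each gene, and other probe sets of the same genes differed. A different probe set read 0.19 and 0.16 for Mrpl9, 0.10 and 0.11 for Mrpl44, and -0.0016 and 0.20 for Mrps23. Others were low as well, such as a probe set of Mrpl15 (-0.23 and -0.39) and another of Mrpl44 (-0.18 and -0.49). The high ones included Mrps15 (0.28 and 0.81), Mrpl52 (0.40 and 0.81), Mrps24 (0.38 and 0.66) and Mrpl54 (0.41 and 0.50). Despite this spread the median member stayed near its baseline on these arrays, at -0.04 on array 3 and -0.03 on array 5, within the -0.05 to 0.08 of all 9 arrays. Without both arrays and with the same probe sets, Mrpl16 alone was past the threshold (0.40, adjusted p = 0.043 by limma), 0 members were lower, and 48 of 76 were above 0. Mrpl27 was then at 0.31 ± 0.12 with its probe set of the full comparison, and at 0.49 (adjusted p = 0.0207) when the probe set was chosen again, which took its other one.

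**Figure D3:**
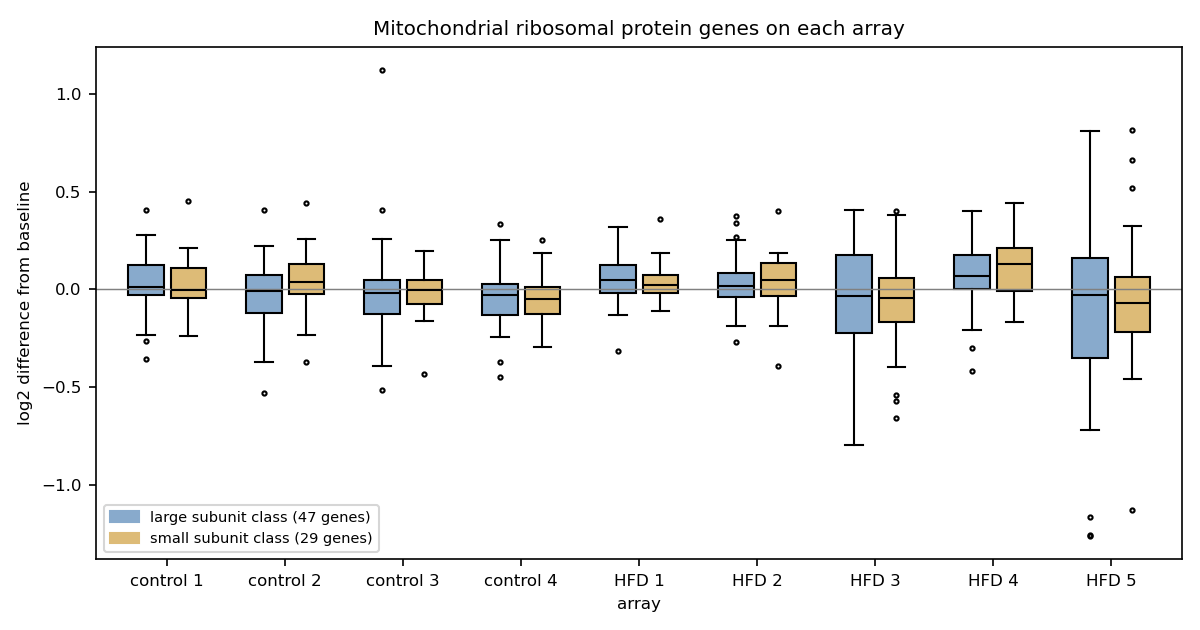
Values of the members on each of the 9 arrays (horizontal axis) as log2 differences from the baseline of the probe set (vertical axis), for the 47 large subunit genes (blue) and 29 small subunit genes (yellow). Boxes span the quartiles with the median as a line, whiskers reach the last value within 1.5 times the box height and dots lie beyond. The boxes and whiskers of HFD arrays 3 and 5 are the tallest, while the medians of all arrays lie near 0.

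Many members were read by several probe sets that differed. Of the 42 members with several probe sets, 15 had all of them on one side of 0, and the spread between a member's highest and lowest probe set had a median of 0.24. The probe set with the largest SD over all arrays stood for the gene, and averaging gave a smaller difference in 35 of the 42 and the other sign in 7. With averaging, 43 members were above 0 and 33 below. No member had probe sets past the threshold in opposite directions. Tested one by one over all 32801 probe sets, Mrpl16 was again higher, and 1 probe set each of Mrpl13 (-0.32, adjusted p = 0.0467 by limma) and Mrpl38 (-0.37, adjusted p = 0.0306) was lower, neither of them the one that stood for its gene. These were 1 higher and 2 lower of the 155 probe sets of members. Over all probe sets 4% passed, 831 as higher and 481 as lower.

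The other proteins of mitochondrial translation were taken from lists made with earlier results of these data known. Their calls stand beside the 5.24% of all genes that passed in either direction. Of 15 measured translation factors 2 rose (13.3%), both of them initiation factors. Mtif3 rose by 0.67 ± 0.11 (adjusted p = 0.00608 by limma) and Mtif2 by 0.48 ± 0.12 (adjusted p = 0.0494), each without overlap, while the median of the list was 0.09. The elongation factors did not pass, with Gfm1 at 0.39 ± 0.14, Tsfm at 0.08 and Tufm at -0.08. Of 18 measured enzymes that charge mitochondrial transfer RNAs, 1 rose (5.56%, near the share of all genes). It was Gatb, a subunit of the amidotransferase that makes glutaminyl-tRNA (0.56 ± 0.10, adjusted p = 0.0136 by limma).

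Of 30 genes of mitoribosome assembly and RNA modification 2 rose (6.67%, against 5.24% of all genes that passed). They were Spg7, a subunit of an inner membrane protease that processes Mrpl32 (0.51 ± 0.11, adjusted p = 0.029 by limma), and Mettl15, which methylates the small subunit RNA (0.55 ± 0.14, adjusted p = 0.0498). With probe sets averaged neither passed (0.16 and 0.30), nor without HFD arrays 3 and 5. The 5 measured ribosomal or ribosome-linked genes under other symbols, among them Dap3 of the small subunit (0.12), lay between -0.08 and 0.12 with 0 calls and 0 at an unadjusted p under 0.05 in either direction. None of 19 genes of mitochondrial DNA transcription and messenger handling passed by limma, and 0 were at an unadjusted p under 0.05.

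Of 12 regulators of nuclear genes for mitochondria, 1 fell and 1 rose (16.7%, against 5.24% of all genes that passed). Pprc1, a coactivator of NRF1, fell by 0.71 ± 0.14 (adjusted p = 0.0159 by limma) and Sp1 rose by 0.66 ± 0.13 (adjusted p = 0.0197). Averaging the probe sets of Sp1 brought its rise to 0.25. Nrf1 (-0.13 ± 0.15), Gabpa (-0.13 ± 0.20) and Yy1 (-0.06 ± 0.20), whose motifs were searched in the promoters, did not pass.

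The nuclear genes of the respiratory chain and ATP synthase, most of whose complexes, complex II apart, take in products of the mitochondrial ribosome, had a median of 0.03, with 45 of 80 above 0 and 1 call (1.25%), Sdhb of complex II (0.28 ± 0.07, adjusted p = 0.0411 by limma). There were 2 calls with probe sets averaged and 0 without HFD arrays 3 and 5. The ribosomal protein genes of the cytosol are listed beside them. Of 48 measured, 13 fell and 0 rose (27.1%, against 5.24% of all genes that passed), 43 were below 0 and the median was -0.35. In 29 of the 48 all HFD arrays were below all controls, which held for 4.2% of all genes. Among them Rpl22l1 fell by 0.77 ± 0.11 and Rpl13a by 0.67 ± 0.10. The members of the mitochondrial ribosome had 0 falls and 2 such separations (2.63%, near the share of all genes), and the difference between the lists was not tested.

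**Figure D4:**
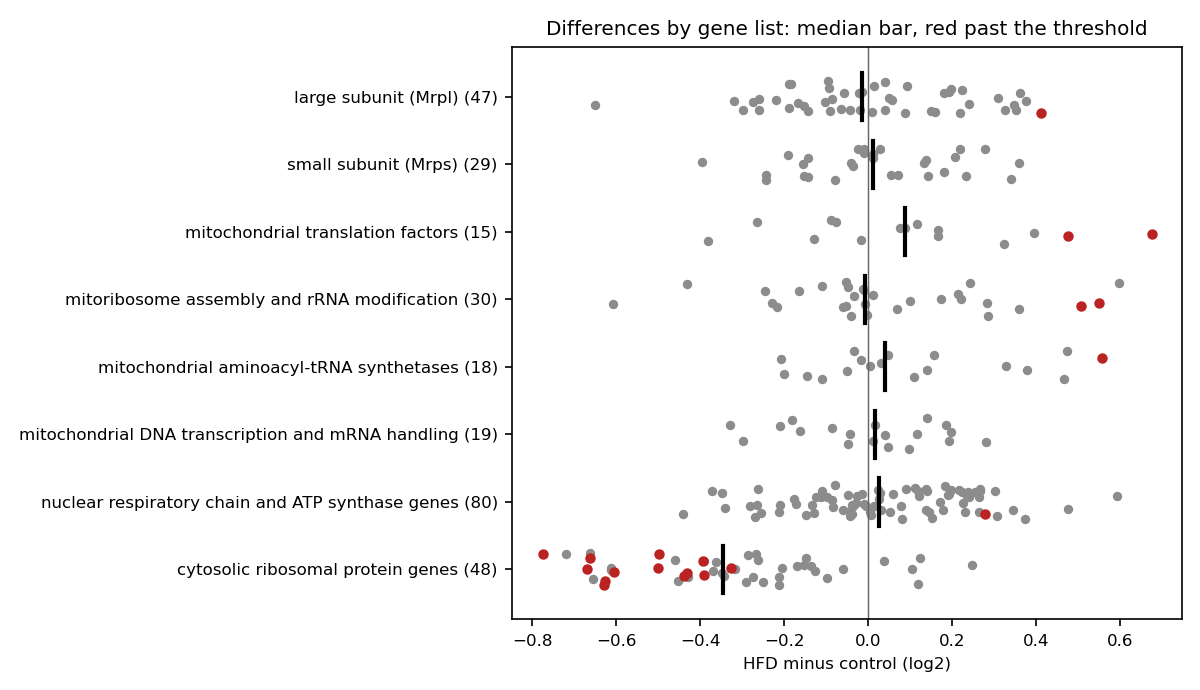
HFD minus control difference on the log2 scale (horizontal axis) for the members of 8 gene lists (vertical axis, number of measured genes in brackets). Points are genes, red points passed the threshold of an adjusted p under 0.05 by limma over all genes, and the vertical bar is the median of the list. The subunits of the mitochondrial ribosome centre on 0 with 1 red point, and the cytosolic ribosomal protein genes centre on -0.35.

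The labelled tissue was checked against cell type markers. Since values are relative to a baseline, the presence of liver markers cannot be read from them, and only differences can. Of 15 Kupffer cell markers 11 fell and 0 rose (73.3%, against 5.24% of all genes that passed). Their mean per array was 0.17 to 1.34 in control and -1.39 to 0.14 in HFD. Of 16 endothelial markers 4 fell (25%), with means of 0.13 to 0.58 in control and -1.09 to 0.18 in HFD. Of 10 measured hepatocyte markers 1 fell (10%), Hnf4a (-0.91 ± 0.19, or -0.52 with probe sets averaged). Of these markers 7 were below 0, and 5 were lower and 0 higher at an unadjusted p under 0.05. They ranged from Hnf4a over Tat (-0.79), Fgb (-0.37) and Alb (-0.06) to Ass1 (0.59). Of 11 stellate cell markers Lrat rose and Reln fell (18.2%), neither of which passed with probe sets averaged or without HFD arrays 3 and 5. By limma 0 of 4 cholangiocyte and 0 of 10 lymphocyte markers passed, with 0 and 2 lower at an unadjusted p under 0.05. Without HFD arrays 3 and 5, 4 Kupffer and 0 endothelial markers fell, and over all genes fewer passed as well. The median difference of the Kupffer markers was then -1.18, against -1.43 with all arrays. For the endothelial markers it was -0.65, against -0.84 with all arrays. In bulk tissue fewer cells of a type and less RNA per cell cannot be told apart, and the part of these markers in the values of the mitoribosomal genes was not tested.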

How the data were processed

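Liver RNA was measured on 9 Affymetrix arrays, 4 control and 5 HFD. The authors used RMA (version not given in the sources used here) and quantile normalization and then set each probe set to its median over all samples, per the series' design text. The deposited values were read as log2 differences from a baseline of the probe set, although the log base is not stated. In most probe sets that baseline was not the median of these 9 arrays. Levels are lost, so that no filter on dim probe sets was possible. Of 41842 probe sets 60 controls were left out, and 32801 had 1 symbol, 862 several and 8119 none. Names come from the platform annotation, and all 76 members were found by Entrez ID in the current gene table. The probe set with the largest SD over the 9 arrays stood for its gene, which also favours larger differences, and was kept where arrays were left out or rescaled.

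The groups were compared in R 4.3.3 with limma 3.58.1 (linear fit with moderated variances, two-sided, Benjamini-Hochberg over 17514 genes, threshold 0.05, no covariate). The code was checked on simulated data. No paired or batch term was available. The members and all lists were chosen with earlier results of these data known. Members named were those past the threshold, the 4 highest and 4 lowest of each class, those with opposed probe sets, the Mrps18 paralogs and the stalk, with others named after their values were seen. From each other list up to 6 members past the threshold were named.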

Additional observations from a re-analysis of the deposited data

Results flagged for a closer look

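In each member the highest and lowest array of each group was compared with the other arrays of the group, over 160 groups of values that include 4 medians per array. A value was singled out when its gap to the nearest other array, divided by the range of the group, was above Dixon's critical value at the 95% level. This gave 5 values, fewer than the about 1 in 20 groups that chance singles out.

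Mrpl40, of the central protuberance, had one such value in each group. Control array 1 read 0.22 beside others between -0.017 and 0.0088, and HFD array 4 read 0.33 beside others between -0.027 and 0.029. Mrpl34, a small bacterial-type protein, read 0.69 on HFD array 5, where the others lay between -0.16 and 0.05. Mrpl13 read 0.22 on control array 2, where the others lay between -0.0015 and 0.035. Mrps30, of the large subunit by structure, read -0.19 on HFD array 2, where the others lay between 0.0023 and 0.030.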

How the results depend on the processing

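Over up to 21 alternatives, 1561 of 1568 differences of single members kept their direction where called and their side of the threshold, 2 lost the call, 5 gained one and 0 called values reversed, while 1461 kept their sign. A difference called in neither setting counts among the 1561 whatever its sign. As every member but Mrpl16 was uncalled in the report, that count says little about the size of single differences. The count of members higher in HFD, 1 in the report, was 2 with probe sets averaged, 0 at an adjusted p under 0.01, 3 at an adjusted p under 0.10 (2 of the large and 1 of the small subunit). It ranged from 0 to 2 when each array was left out, with 0 without control replicate 3 and 2 without control replicate 1 (with Mrpl49) or HFD replicate 2 (with Mrpl54). The large subunit gave the same counts apart from the 3. The count of members lower, 0 in the report, was 2 with every probe set on its own (Mrpl13 and Mrpl38), both of the large subunit. In that setting 4% of all probe sets passed in either direction. The median of the large subunit members was 0.040 with probe sets averaged, 0.042 when control replicate 1 and HFD replicate 5 were both left out and 0.057 without HFD replicates 3 and 5, an alternative chosen after seeing the data. The large minus small difference was 0.028 with averaging and 0.022 without HFD replicates 3 and 5. Choosing probe sets again in each of 13 settings that rescale or leave out arrays, also added after seeing the data, gave 2 higher without HFD replicates 3 and 5 (with Mrpl27 on its other probe set), 1 lower after a further quantile normalization (Mrpl13 at -0.34, on a probe set already at -0.32 without it), the same range of 0 to 2 higher when each array was left out, and a large subunit median of 0.031 without control replicate 1 and HFD replicate 5. The cause of these changes was not tested.

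Over all genes 590 were higher and 327 lower, against 538 in both directions with the probe set of largest within-group SD, 385 without control replicate 2, 474 without control replicate 3, 568 without control replicate 4, 475 without HFD replicate 3, 245 at 0.01 and 1506 at 0.10. A filter that dropped the least variable 25% of genes kept 51 members. The count of cytosolic ribosomal protein genes that fell, 13, was 19 with probe sets averaged and 11 without HFD replicates 3 and 5.

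No paired analysis was possible because replicate numbers follow the order of deposition and pair no arrays. With 9 arrays and a median interval 0.50 wide, the number of arrays limits what can be detected. The labels give no batch, so that a batch and the diet cannot be told apart.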
